A study of Mus musculus with 2 samples.

Results

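The Slc25 genes encode the mitochondrial carriers, a family of membrane proteins that move nucleotides, phosphate, amino acids, carboxylic acids and cofactors across the inner mitochondrial membrane. The members were taken as every gene symbol of the form Slc25a followed by a number, which gave 47 of the 32531 symbols counted. Translating ribosome affinity purification (TRAP) had been applied to the ventral striatum of adult, untreated mice of the Stard5-TRAP line JX5852. In these animals ribosomal protein L10a carries EGFP under regulatory sequence of Stard5, so the tag marks whichever cells use that sequence in this 1 line, and RNA on tagged ribosomes was pulled down with antibodies against EGFP. The series holds 2 such libraries, replicates 1 and 2 of 1 group, with 25830282 and 29574781 reads in genes. No input RNA or untagged tissue was analysed here, so levels can be described but enrichment in the tagged cells cannot. The labels do not say whether the libraries came from separate animals or pools, and the spread between them may be technical.

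As background, the carriers share a fold built from a repeated element, and each member is specific for a few substrates. The ADP/ATP carriers and the phosphate carrier feed oxidative phosphorylation, which supplies most of the ATP that neurons use for ion pumping and transmitter release. The aspartate/glutamate and oxoglutarate carriers form the malate-aspartate shuttle, which passes reducing equivalents of glycolysis into mitochondria. Other members carry glutamate, coenzyme A, NAD, iron, glutathione or fatty acyl carnitine.

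Markers of striatal spiny projection neurons were abundant in both libraries. All 10 were detected, with summed levels of 12479.5 and 9575 CPM (reads per 1000000 reads in genes) in replicates 1 and 2. The libraries differed in markers of other cell types. All 10 astrocyte markers were detected, and their sum was 923 CPM in replicate 1 and 3072 CPM in replicate 2. Oligodendrocyte markers (9 of 9 detected) summed to 873 and 1374 CPM and microglia markers (8 of 8) to 197 and 144 CPM. Of the endothelial and mural markers 5 of 6 were detected, with sums of 30.4 and 28.4 CPM. None of 4 ependymal and choroid plexus markers was detected, and Folr1, Ttr and Ccdc153 had 0 reads. Nuclear noncoding RNAs (6 of 6 detected) summed to 3911 and 10706 CPM. In RNA pulled down from tissue, fewer cells of a type and less RNA per cell cannot be told apart. Other sources of these differences were not tested.

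Coding sequences were compared to describe how alike related members of the family are. The ADP/ATP carrier genes Slc25a4 (ENSMUSG00000031633.4, chr8:46206797-46211284, minus strand, GRCm38) and Slc25a5 (ENSMUSG00000016319.3, chrX:36795651-36798807, plus strand) each have 894 coding bases in the GENCODE M21 transcripts and differ at 202 of them. The first 90 coding bases, 5′ to 3′, are printed to show how the differences are spread, with capitals where the genes differ.
Slc25a4: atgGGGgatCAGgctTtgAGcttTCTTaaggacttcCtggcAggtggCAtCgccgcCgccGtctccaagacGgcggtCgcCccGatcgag
Slc25a5: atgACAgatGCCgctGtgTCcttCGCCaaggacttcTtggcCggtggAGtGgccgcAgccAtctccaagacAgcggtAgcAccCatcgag
This stretch holds 24 differing bases, and the longest identical run between the coding sequences of this pair is 20 bases. The longest identical runs of coding sequence in 3 pairs of related members are given next. They bound only matches without mismatches, and untranslated bases were not compared between the members of a pair.
Slc25a4 and Slc25a5: cagttctggcgctactttgc
Slc25a12 and Slc25a13: ttctttggactgtaccgaggt
Slc25a23 and Slc25a25: ctctggcggggcaacggcatcaa
These runs are 20, 21 and 23 bases long. Across the 12 pairs compared here the coding sequences were between 62.2% and 78.6% identical, and no identical run was longer than 23 bases.

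Copies outside the family were closer. Slc25a5 had 3 pseudogenes that matched its coding sequence at 95% identity or more over at least 100 bases, the nearest being Gm5560 at 98.3% over 887 bases. Slc25a36 matched the pseudogene Gm13217 at 99.6% over 544 bases, and Slc25a40 matched the pseudogene Gm5066 at 96.3% over 724 bases. Reads that align to more than 1 place formed a line of their own in the files, so the levels of these 3 genes are uncertain. Such reads were 27.9% of the total over all lines for replicate 1 and 13.6% for replicate 2. Slc25a37 and Slc25a51 had stretches at the same identity in annotated genes that are not pseudogenes. Both also share exon bases with other genes (6.33% and 2.27%), so these stretches are not shown to be copies elsewhere. For Slc25a23, Slc25a25, Slc25a33 and Slc25a46 such matches were to genes whose exons overlap theirs, not to copies elsewhere. These genes were Gm17168, Naif1, Gm13068 and B930094E09Rik. Slc25a35 shares 31.3% of its exon bases with Rangrf. The counting is not stated to use strand, so reads of overlapping genes cannot be separated.

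Of the 47 members, 37 (78.7%) were detected, meaning that each library held at least 1 CPM, against 56.6% of the 19737 protein-coding symbols. Of the detected members 22 were at 10 CPM or above in both libraries, 12 at 50 CPM or above and 7 at 100 CPM or above. The median over the 37 detected members was 15.2 CPM, and that over all 12374 detected genes was 23.1 CPM. Per kilobase of exon (RPKM, the CPM divided by the summed exon length in kilobases) the medians were 4.96 for the members and 5.31 for all detected genes with an annotated length. The family as a whole summed to 2988 CPM for replicate 1 and 2486 CPM for replicate 2, a mean of 2737 ± 355 CPM (SD, n = 2).

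**Figure D1:**
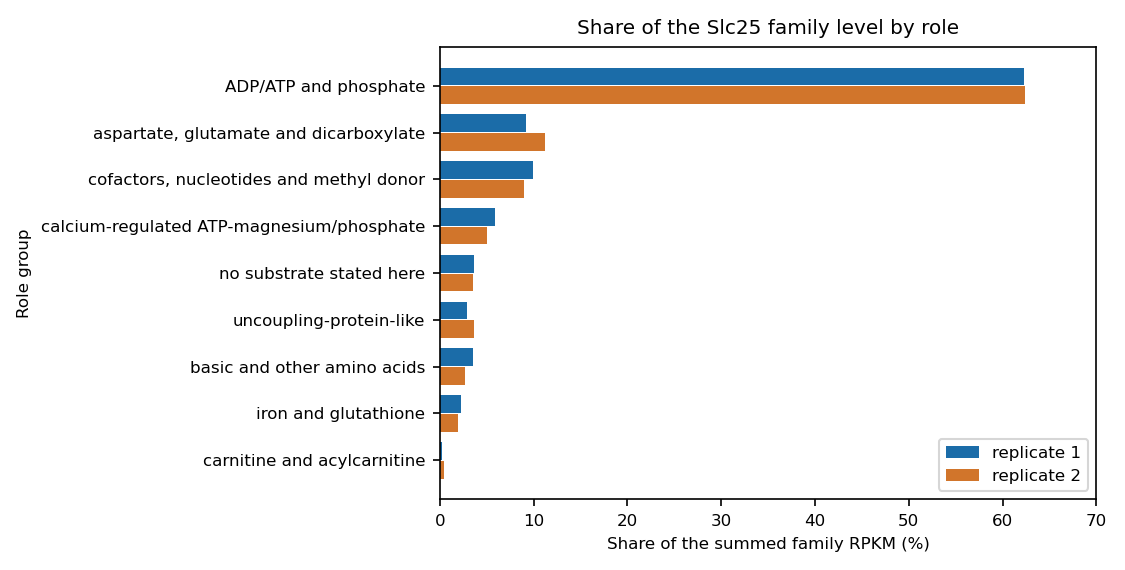
Share of the summed RPKM of the Slc25 family (horizontal axis, percent) held by each role group (vertical axis) in replicate 1 (upper bar) and replicate 2 (lower bar). The ADP/ATP and phosphate carriers held 62.3% in replicate 1 and 62.4% in replicate 2.

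The ADP/ATP carriers and the phosphate carrier held 62.3% and 62.4% of the summed family RPKM in replicates 1 and 2, and 47.8% and 48.8% of the family's reads. Slc25a4, the ADP/ATP carrier of heart, muscle and brain, was the highest member, at 896 CPM in replicate 1 against 711 CPM in replicate 2, rank 129 of all genes by mean CPM. Slc25a5, the more widely expressed ADP/ATP carrier, was at 178 and 157 CPM. Slc25a3 (ENSMUSG00000061904.12, chr10:91116574-91124059, minus strand), which imports phosphate for ATP synthesis and also carries copper, was at 353 and 346 CPM. Slc25a31, the germ-cell ADP/ATP carrier, had 0 reads in both. A count of 0 allows a level of up to 0.116 CPM (replicate 1) or 0.101 CPM (replicate 2), taken as 3 reads. Per kilobase, Slc25a4 stood at 342 ± 55.5 RPKM, Slc25a5 at 102 ± 9.08 RPKM and Slc25a3 at 62.9 ± 0.938 RPKM (SD, n = 2), and this order held in both libraries. By CPM Slc25a3 stood above Slc25a5 in both, so their order per kilobase rests on summed exons of 5550 bases for Slc25a3 and 1646 for Slc25a5.

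Slc25a4 alone held 42.9% of the summed family RPKM in replicate 1 and 41.0% in replicate 2, a mean of 42.0% ± 1.37 (SD, n = 2). Its share of the family's reads, without regard to length, was 30.0% for replicate 1, with a Clopper-Pearson 95% interval of 29.7 to 30.3, and 28.6% for replicate 2, with 28.3 to 28.9. The 5 highest members by RPKM held 70.9% of the summed RPKM in each library, and the 10 highest held 87.5% and 85.2%. Within the order by RPKM, 11 of 36 neighbouring members kept their order in both libraries and 25 did not. On this scale Slc25a4, Slc25a5 and Slc25a3 kept the first 3 places. Slc25a23 and Slc25a12 came next by mean and changed places between the libraries, followed by Slc25a11, Slc25a51, Slc25a46, Slc25a14 and Slc25a44.

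**Figure D2:**
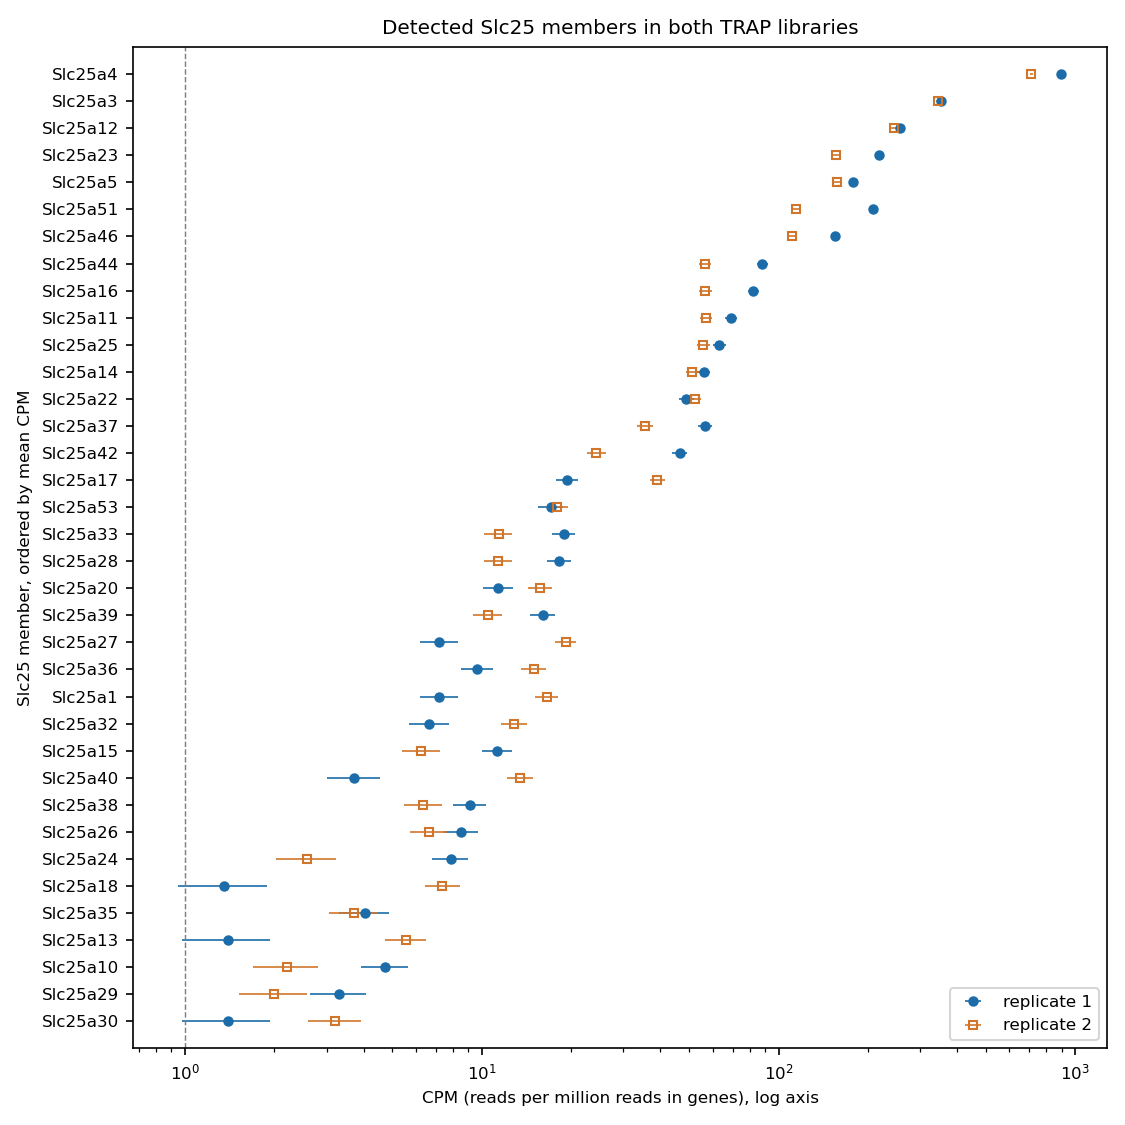
Level of 36 of the 37 detected members (vertical axis, ordered by mean CPM) in replicate 1 (filled circles) and replicate 2 (open squares), in CPM on a log axis; bars are exact Poisson 95% intervals, which cover counting error only, and the dashed line marks 1 CPM. The 12 members at 50 CPM or more in both libraries lie within 2-fold, while several lower members are apart by more than 2-fold.

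In the calcium-regulated ATP-magnesium/phosphate group, which sets the adenine nucleotide content of mitochondria, Slc25a23 led. It stood at 218 CPM in replicate 1 against 156 CPM in replicate 2, or 35.4 ± 8.25 RPKM (SD, n = 2). Slc25a25 was at 63.2 and 55.9 CPM, and Slc25a24 at 7.86 and 2.57 CPM. Slc25a41, a form without the calcium-binding domain, had 20 reads in replicate 1 and 0 in replicate 2. Slc25a54 had 0 reads in both. The order Slc25a23, Slc25a25, Slc25a24 held in both libraries.

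Of the aspartate/glutamate carriers, the neuronal form was by far the more abundant. Slc25a12 (ENSMUSG00000027010.16, chr2:71271063-71367749, minus strand), known as the aspartate/glutamate carrier of neurons and muscle, was at 257 and 245 CPM, or 34.2 ± 1.14 RPKM (SD, n = 2). Slc25a13, its counterpart best known in liver, was at 1.39 and 5.55 CPM. Slc25a11, which exchanges oxoglutarate for malate in the same shuttle, was at 69.1 and 56.9 CPM, or 29.7 ± 4.06 RPKM. Among the shuttle's enzymes, all 4 were detected: Mdh1 was at 796 and 761 CPM, Got1 at 592 and 555 CPM, Mdh2 at 233 and 243 CPM, and Got2, the lowest, at 49.4 and 52.8 CPM. In the test between libraries described below, 0 of the 4 were called. Of all tested genes, 7.78% and 9.57% were called higher in replicates 1 and 2.

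The glutamate and remaining carboxylate carriers were lower. Slc25a22, a glutamate carrier whose loss causes severe infantile epilepsy in humans, was at 48.9 and 52.3 CPM. Slc25a18 (ENSMUSG00000004902.7, chr6:120773578-120794336, plus strand), a second glutamate carrier that is enriched in astrocytes in brain, was at 1.36 CPM in replicate 1 (0.944 to 1.88, exact Poisson 95% bounds), against 7.37 CPM in replicate 2 (6.43 to 8.42). The citrate carrier gene Slc25a1 was at 7.20 and 16.6 CPM. The dicarboxylate carrier gene Slc25a10 was at 4.72 and 2.20 CPM. Slc25a21, which carries oxodicarboxylates of lysine breakdown, had 12 and 11 reads and was not detected.

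All 9 carriers of cofactors, nucleotides and the methyl donor were detected. Slc25a51, which brings NAD into mitochondria, led at 208 CPM in replicate 1 against 115 CPM in replicate 2, or 29.3 ± 11.98 RPKM. Slc25a16 and Slc25a42, both linked to coenzyme A transport, were at 82.3 and 56.7 CPM and at 46.5 and 24.3 CPM in replicates 1 and 2. The peroxisomal carrier gene Slc25a17, which serves coenzyme A and other cofactors, was the higher in replicate 2, at 19.4 and 39.0 CPM. The pyrimidine nucleotide carrier genes Slc25a33 and Slc25a36 were at 18.9 and 11.4 CPM and at 9.64 and 14.9 CPM. The folate carrier gene Slc25a32 was at 6.66 and 12.8 CPM, and Slc25a26, which imports S-adenosylmethionine, was at 8.52 and 6.63 CPM.

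Carriers of amino acids and of acyl carnitine covered a wide range. Slc25a44, which carries branched-chain amino acids, stood at 88.2 and 56.5 CPM, well above the ornithine carrier gene Slc25a15 at 11.3 and 6.26 CPM. The glycine carrier gene Slc25a38, needed for haem synthesis, was at 9.10 and 6.36 CPM, and the basic amino acid carrier gene Slc25a29 at 3.29 and 1.99 CPM. Slc25a2, an ornithine carrier without introns in its coding sequence, had 0 reads and 1 read. The carnitine/acylcarnitine carrier gene Slc25a20, the route of long-chain fatty acids to oxidation, was at 11.4 and 15.7 CPM. Of the 5 carnitine acyltransferase genes that act beside it, 4 were detected, with Crat at 40.6 and 29.0 CPM, Cpt1a at 13.1 and 39.4 CPM, Cpt1c at 10.3 and 17.4 CPM and Cpt1b lowest at 4 reads and 0 reads.

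Both mitoferrins, which import iron, were detected. Slc25a37 (mitoferrin 1) was at 56.6 and 35.4 CPM and Slc25a28 (mitoferrin 2) at 18.2 and 11.4 CPM in replicates 1 and 2. Of 8 iron-sulphur cluster and haem genes all were detected, led by Isca1 at 115 and 79.6 CPM and Fech at 98.1 and 90.01 CPM. The glutathione carrier gene Slc25a39 was at 16.0 and 10.5 CPM, and its homologue Slc25a40 at 3.72 and 13.5 CPM. In replicate 1 Slc25a39 had the higher CPM of these, and in replicate 2 Slc25a40 did.

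The members related to uncoupling proteins were led by Slc25a14, a form known from brain, at 56.0 and 51.2 CPM. Slc25a27, another brain form, was at 7.20 and 19.2 CPM, and Slc25a30, first described in kidney, at 1.39 and 3.21 CPM. The uncoupling proteins proper belong to the same fold under other names: Ucp2 was at 9.64 and 10.4 CPM, Ucp3 had 0 and 20 reads and Ucp1 had 0 in both. Of members with no substrate stated here, Slc25a46, an outer membrane protein of mitochondrial dynamics that is mutated in inherited neuropathy with optic atrophy, was highest at 155 and 111 CPM. Slc25a53 was at 17.1 and 18.0 CPM and Slc25a35 at 4.03 and 3.72 CPM. Their relatives Mtch2 and Mtch1, outer membrane proteins of the same fold, were at 52.5 and 46.7 CPM and at 44.4 and 39.6 CPM.

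The 10 members not detected included 3 with 0 reads in both libraries, Slc25a31, Slc25a43 and Slc25a54. Besides these and the members already named, Slc25a47, a carrier of liver, had 1 read in each library and Slc25a48 had 0 and 2 reads. Slc25a45 had 16 and 54 reads, or 0.619 and 1.83 CPM. Slc25a34 missed detection through replicate 1 alone, with 11 reads (0.426 CPM) there and 146 reads (4.94 CPM) in replicate 2.

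Members that adjoin each other in the genome differed widely in level. Slc25a23 (chr17:57043711-57059863) lies 2056 bases from Slc25a41 (chr17:57032773-57041654) on the same strand, and the pair had 5636 and 20 reads in replicate 1. Slc25a5 lies 18448 bases from Slc25a43 (chrX:36743659-36777202), which had 0 reads beside 4602 and 4644 of Slc25a5. Slc25a24 (chr3:109123149-109168457) lies 6461 bases from Slc25a54 (chr3:109080469-109116687) which had 0 reads beside 203 and 76 of Slc25a24. Slc25a29 (chr12:108825873-108835883) and Slc25a47 (chr12:108836046-108856815) start 162 bases apart on opposite strands, with 85 and 59 reads of Slc25a29 against 1 read of Slc25a47 in each library. These were the 4 sets of members within 100000 bases of each other, and no protein-coding gene lies between any of them.

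Related members were compared per kilobase of exon in 12 pairs, and on that scale the sign of the ratio was the same in both libraries for all 12. Without length, and also per coding length, the sign differed between the libraries for Slc25a39 over Slc25a40 and for Slc25a36 over Slc25a33. Slc25a4 exceeded Slc25a5 by 1.81 log2 units in replicate 1 and 1.66 in replicate 2, a mean of 1.74 ± 0.11 (SD, n = 2). Multiply aligned reads are not in the count of Slc25a5, which has 3 close pseudogenes, so this ratio may be too high. Slc25a12 exceeded Slc25a13 by 6.58 and 4.52 log2 units, with a mean of 5.55 ± 1.46. Slc25a11 exceeded Slc25a10 by 4.99 ± 0.58 and Slc25a23 exceeded Slc25a25 by 2.21 ± 0.21 log2 units. With 2 libraries an exact permutation test cannot go below p = 0.5, so none was run.

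The sign per kilobase of exon was kept, but the size of most ratios was not. For Slc25a12 over Slc25a13 the counting interval was 6.11 to 7.09 in replicate 1 and 4.29 to 4.75 in replicate 2. The intervals of Slc25a4 over Slc25a5, Slc25a11 over Slc25a10 and Slc25a23 over Slc25a25 did not overlap between the libraries either. Slc25a22 exceeded Slc25a18 by 3.53 log2 units (counting interval 3.04 to 4.05) in replicate 1 and by 1.18 (0.97 to 1.39) in replicate 2. Slc25a39 exceeded Slc25a40 by 3.71 (3.39 to 4.05) in replicate 1 and by 1.24 (1.02 to 1.46) in replicate 2. Of the reads of Slc25a39 and Slc25a40 together, Slc25a39 took 81.2% in replicate 1 and 43.7% in replicate 2, so the direction in replicate 2 rests on the exon lengths of 2756 and 8386 bases. The count of Slc25a40 is also uncertain through its pseudogene match. For Slc25a22 over Slc25a18 and for Slc25a39 over Slc25a40 the intervals of the libraries do not overlap. In both pairs the second member was the one that differed more between libraries. Slc25a27 stood below Slc25a14 by a log2 ratio of -3.69 in replicate 1 and -2.15 in replicate 2, and Slc25a30 below Slc25a14 by -6.28 and -4.95. Slc25a24 stood below Slc25a25, at -1.81 and -3.25.

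The steadiest ratio was that of the mitoferrins: Slc25a28 over Slc25a37 was -0.95 in replicate 1 and -0.96 in replicate 2. Slc25a42 over Slc25a16 was -1.15 and -1.54. Slc25a36 over Slc25a33 was -3.32 and -1.95 per kilobase of exon, and the direction in replicate 2 again depends on length. Of the reads of Slc25a36 and Slc25a33 together, Slc25a36 took 33.7% in replicate 1 and 56.7% in replicate 2, and the mean log2 ratio was -0.29 without length and -0.25 per coding length, against -2.64 ± 0.97 (SD, n = 2) per kilobase of exon. The summed exons are 9594 bases for Slc25a36 and 1887 for Slc25a33, and the count of Slc25a36 is also uncertain through its pseudogene match. With coding length, means also moved to 4.15 for Slc25a11 over Slc25a10, -3.61 for Slc25a24 over Slc25a25, -1.74 for Slc25a28 over Slc25a37 and -4.50 for Slc25a30 over Slc25a14. Means of 6.50 for Slc25a12 over Slc25a13, 3.99 for Slc25a22 over Slc25a18, -2.17 for Slc25a27 over Slc25a14 and 0.78 for Slc25a39 over Slc25a40 with coding length lay within 1 SD of those per kilobase of exon, but over 1.5-fold away.

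**Figure D3:**
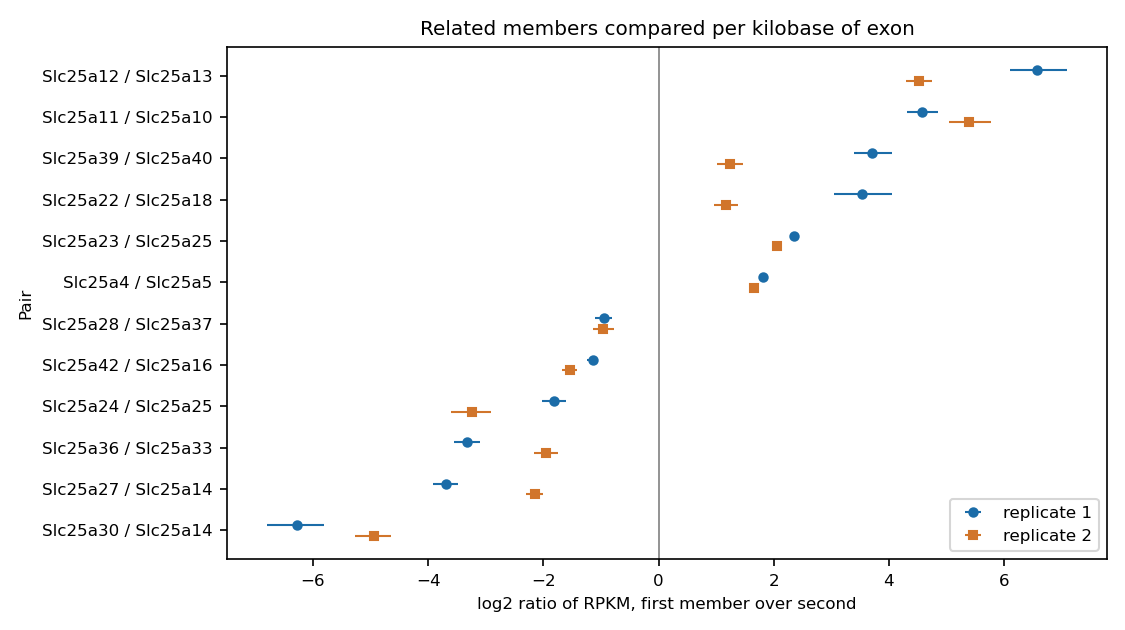
log2 ratio of RPKM of the first over the second member (horizontal axis) for 12 pairs of related members (vertical axis) in replicate 1 (circles) and replicate 2 (squares); bars are counting intervals from exact Clopper-Pearson 95% bounds on the reads. All points of a pair lie on the same side of 0, from 6.58 for Slc25a12 over Slc25a13 in replicate 1 to -6.28 for Slc25a30 over Slc25a14.

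The reads of each detected gene were also compared between the libraries, which tests these 2 libraries and not conditions, and covers counting error only. A call needed an adjusted p below 0.05 (exact binomial test, library sizes scaled by TMM, Benjamini-Hochberg over all 12374 detected genes) and at least a 2-fold ratio. Of the 37 detected members, 2 (5.41%) were called higher in replicate 1, where 7.78% of all tested genes were. Another 7 (18.9%) were called higher in replicate 2, where 9.57% of all tested genes were. The median log2 ratio of replicate 1 over replicate 2 was 0.16 over the members and 0.00 over all tested genes. With no spread between libraries in the test, 78.8% of all genes passed on p alone, so the 2-fold limit decides most calls.

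None of the 12 members at 50 CPM or more in both libraries was called, and their log2 ratios ran between 0.00 for Slc25a3 and 0.83 for Slc25a51. All 9 calls fell among the 25 lower members, and the most abundant called member, Slc25a17, averaged 29.2 CPM. The share of all genes called at these levels is not given here, so this split cannot be read as particular to the family. The other 28 detected members lay between -0.97 (Slc25a32) and 0.91 (Slc25a42).

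Among the detected members, the largest difference was that of the glutamate carrier gene Slc25a18, with 35 reads in replicate 1 and 218 in replicate 2, a log2 ratio of -2.47 (exact binomial test, adjusted p = 2.61e-28). The aspartate/glutamate carrier gene Slc25a13 had 36 and 164 reads, a ratio of -2.02, and the glutathione carrier homologue Slc25a40 had 96 and 399 reads, a ratio of -1.89. Slc25a40 has a close pseudogene, and multiply aligned reads, 27.9% and 13.6% of all lines in replicates 1 and 2, are not in its count. Their effect on its ratio was not tested. Slc25a27 (186 and 568 reads) was at -1.44, Slc25a30 (36 and 95 reads) at -1.23, and the citrate carrier gene Slc25a1 (186 and 490 reads) at -1.23. Slc25a17 (501 and 1154 reads) was at -1.03, just past the limit. It was no longer called with the size factors of DESeq2, where its ratio was -0.99.

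Higher in replicate 1 were Slc25a24, with 203 and 76 reads and a log2 ratio of 1.59 (exact binomial test, adjusted p = 1.74e-17), and Slc25a10, with 122 and 65 reads and a ratio of 1.08. With the trend of the ratio on exon length removed, Slc25a10 fell to 0.95 and was no longer called. When a mean of 5 CPM was required, Slc25a10, Slc25a13, Slc25a18 and Slc25a30 were not tested, and 5 of the 9 calls remained.

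Markers of astrocytes and nuclear RNAs moved in the same direction as the 7 members called higher in replicate 2. Of all tested genes, 9.57% were called higher in replicate 2 and 7.78% higher in replicate 1. Of the 10 astrocyte markers, 8 were called higher in replicate 2 and 0 higher in replicate 1. Their log2 ratios had a median of -1.73, and they were led in abundance by Slc1a2 at 741 CPM in replicate 1 against 2496 CPM in replicate 2 and by Aldoc at 80.8 and 225 CPM. Of 9 oligodendrocyte markers 4 were called higher in replicate 2 (median -0.75), with Mbp at 281 and 374 CPM. Of 6 nuclear noncoding RNAs 5 were called higher in replicate 2 (median -1.27), with Malat1 at 2666 and 7461 CPM and Meg3 at 927 and 2367 CPM. The 10 spiny neuron markers had a median of 0.34 and 0 calls, with Arpp21 at 3037 and 2063 CPM and Gnal at 2681 and 2283 CPM. The part of these differences in the ratios of the Slc25 members was not tested.

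The log2 ratios of the microglia markers had a median of 0.44, with 1 call, C1qb, higher in replicate 1, with Ctss at 51.3 and 43.5 CPM and Csf1r at 49.6 and 28.1 CPM. Of all tested genes, 7.78% were called higher in replicate 1. Endothelial and mural markers had a median of 0.98 and 2 calls, both higher in replicate 1, with Rgs5 at 6.85 and 13.3 CPM and Flt1 at 10.7 and 8.93 CPM. The only ependymal or choroid plexus marker with reads was Foxj1, at 0.774 and 0.778 CPM.

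**Figure D4:**
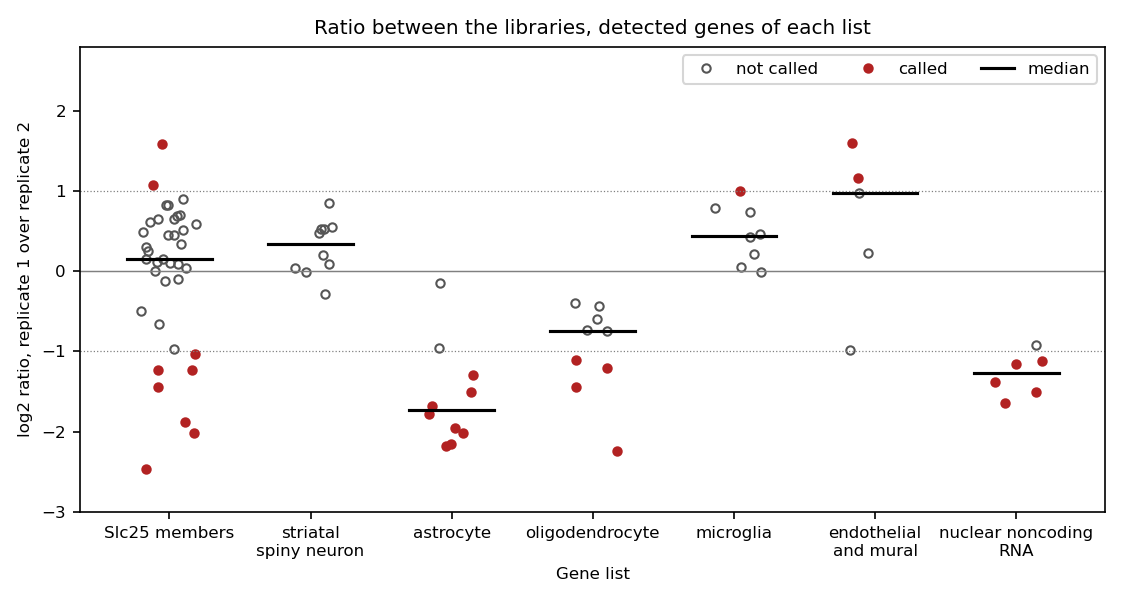
log2 ratio of replicate 1 over replicate 2 (vertical axis) of each detected gene in the Slc25 family and in 6 marker lists (horizontal axis); filled points were called by the binomial test with a 2-fold ratio (dotted lines), and black lines are medians. Slc25 members spread on both sides of 0 around a median of 0.16, while all 10 astrocyte markers lie below 0 around -1.73.

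Other genes of mitochondrial transport were examined in 11 lists of 59 genes, of which 58 were found and 53 detected. Of the 53 detected genes 6 were called higher in replicate 1 and 3 higher in replicate 2, where 7.78% and 9.57% of all tested genes were. The outer membrane channels, through which carrier substrates reach the inner membrane, were all detected with 0 calls: Vdac1 was at 285 and 244 CPM, Vdac2 at 199 and 188 CPM, and Vdac3, the lowest, at 76.0 and 76.9 CPM. Vdac1 and Slc25a5 were close per kilobase, at 101 ± 11.2 and 102 ± 9.08 RPKM (SD, n = 2), though the level of Slc25a5 is uncertain through its pseudogenes. The glycerol phosphate shuttle, an alternative to the malate-aspartate shuttle, was also fully detected with 0 calls, with Gpd2 at 103 and 142 CPM, Gpd1l at 132 and 110 CPM and Gpd1 lowest at 44.1 and 40.7 CPM.

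Of 13 genes listed for the machinery that brings carriers to the inner membrane, 12 were found and 11 detected, and 4 were called higher in replicate 1 and 0 higher in replicate 2, beside 7.78% and 9.57% of all tested genes. The receptors Tomm20, at 436 and 392 CPM, and Tomm70a, at 403 and 397 CPM, stood highest. Tomm22, the third by mean, was called, at 89.1 and 36.2 CPM (log2 ratio 1.27), as were the pore gene Tomm40 and the small Tim genes Timm10 and Timm10b. Timm8a1, the lowest, had 7 and 21 reads.

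In the calcium uniporter complex all 7 genes were detected. Its regulator Micu3 was the highest at 311 and 244 CPM, above the pore gene Mcu at 36.0 and 48.5 CPM, with Ccdc109b lowest at 3.06 and 1.72 CPM. Mcur1 was the only call, with a log2 ratio of 1.46. Of all tested genes, 7.78% were called higher in replicate 1 and 9.57% higher in replicate 2. Both pyruvate carrier genes were detected, and Mpc2 was called higher in replicate 1, at 34.8 and 13.9 CPM, while Mpc1 was at 3.21 and 2.57 CPM. Of 5 sideroflexins, a separate family of which Sfxn1 carries serine, 4 were detected with 0 calls, led by Sfxn3 at 99.2 and 70.4 CPM, Sfxn1 at 74.5 and 68.0 CPM and Sfxn5 at 19.5 and 37.8 CPM, with Sfxn2 lowest at 14 and 31 reads.

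The carnitine and glutamate enzymes held the 3 calls towards replicate 2, where 9.57% of all tested genes were called. The carnitine acyltransferase genes Cpt1a and Cpt2 had log2 ratios of -1.62 and -1.86. Among 4 glutamate and glutamine enzyme genes, Glul, the glutamine synthetase gene known from astrocytes, was called at 397 CPM in replicate 1 against 870 CPM in replicate 2 (log2 ratio -1.16). Glud1 was at 365 and 542 CPM and Gls2, the lowest, at 2.59 and 4.77 CPM, and neither was called.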

How the data were processed

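RNA pulled down on tagged ribosomes was sequenced from 2 libraries of 1 group. The authors deposited raw counts of reads per gene symbol for each library. STAR 2.0.0e, HTSeq and build mm10 are named in the submitters' processing notes. Which annotation, strand setting and read filters were applied is not given in the sources used here. Lines that name no gene (6 per file) were left out: reads outside annotated exons made up 22.8% and 31.0% of all lines in replicates 1 and 2, multiply aligned reads 27.9% and 13.6%, and ambiguous reads 1.84% and 2.08%.

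CPM was computed per 1000000 of the 25830282 and 29574781 reads in genes. Detection required 1 CPM in both libraries, which is 25.8 and 29.6 reads. RPKM used the summed non-overlapping exons of GENCODE M21 (GRCm38), and all 47 members matched by symbol. Coding sequences were compared with BLAST 2.17.0. The libraries were compared per gene by a 2-sided exact binomial test on reads, with Benjamini-Hochberg adjustment. TMM factors came from edgeR 4.0.16 and were computed on detected genes. The test was checked on data simulated with counting error only, so the check does not cover spread between libraries. A quasi-likelihood fit has no residual degrees of freedom with 1 library a side. PCR copies are not independent molecules and carry no identifiers here, so intervals and floors (3 reads) cover counting error only.

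Alternatives were DESeq2 1.42.0 size factors, other totals, filters, fold limits and lengths, a lowess trend on exon length, and each library alone. Members and lists were chosen with earlier results of these data known. All members could be named, though 1 member and some listed genes are not reported singly here and enter counts and sums only; of each pathway list the rule named up to 3 genes with the highest mean CPM and the lowest, and of each marker list up to 2 with the highest mean CPM. Genes named beyond it, for a call, a 0 or as the rest of a list, were chosen after their values were seen.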

Additional observations from a re-analysis of the deposited data

How the results depend on the processing

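Detection of members ranged from 29 at 5 CPM in both libraries to 41 with 1 read in both, and was 39 without replicate 1 and 37 without replicate 2. Calls towards replicate 1 numbered 1 when a mean of 5 CPM was required, 20 on adjusted p alone, 11 with a 1.5-fold limit and 1 with the length trend removed, against 2 as reported. Calls towards replicate 2 numbered 4 at a mean of 5 CPM and 11 on adjusted p alone, against 7. With no filter beyond 1 read in either library, the calls numbered 3 towards replicate 1 and 9 towards replicate 2. That setting added Slc25a34, Slc25a41 and Slc25a45, which the 1 CPM limit leaves untested. Fewer genes were tested under the 5 CPM filter. The share of the family level held by Slc25a4 was 29.3% without length, 34.2% per coding length and 39.9% per longest transcript, against 42.0%. Without length the log2 ratios were 2.25 for Slc25a4 over Slc25a5, 4.28 for Slc25a11 over Slc25a10, 1.64 for Slc25a23 over Slc25a25, -3.72 for Slc25a24 over Slc25a25, -1.64 for Slc25a28 over Slc25a37, -0.29 for Slc25a36 over Slc25a33, -1.02 for Slc25a42 over Slc25a16 and -4.66 for Slc25a30 over Slc25a14. Per coding length the same pairs gave 2.25, 4.15, 1.78, -3.61, -1.74, -0.25, -0.96 and -4.50. Per longest transcript the values that moved beyond the spread were 1.62 for Slc25a4 over Slc25a5, 1.82 for Slc25a23 over Slc25a25, -3.57 for Slc25a24 over Slc25a25 and -0.97 for Slc25a28 over Slc25a37. No mean ratio of the 12 pairs changed sign under these lengths, and none did in either library alone per kilobase of exon. Without length, and also per coding length, replicate 2 alone turned the direction of 2 pairs. There Slc25a36 took 56.7% of the reads of it and Slc25a33, and Slc25a39 took 43.7% of the reads of it and Slc25a40. No paired analysis was possible because the series holds 1 group. Depth limits the lowest members, where 36 reads or fewer lie behind some values.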
